A study of Mus musculus with 24 samples.

Results

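At 10 days after a pituitary stalk lesion the mouse hypothalamus held transcripts of the T cell genes Cd3e and Cd8a that were at or near the limit of detection 3 days after it, while none of the 10 of 19 further T cell genes that could be tested passed between the days without growth hormone. The monocyte genes Ccr2 and Chil3 were higher at day 3 than at day 10, and the monocyte gene Ly6c2 did not pass between the days. These values come from 10 marker genes of white blood cells, chosen by name from the 22274 genes of the deposited table: the monocyte genes Ccr2, Ly6c2 and Chil3, the neutrophil genes S100a8 and S100a9, the T cell genes Cd3e, Cd3g and Cd8a, the B cell gene Cd79b, and the general myeloid gene Lyz2. The RNA-seq data cover 24 samples of male C57BL/6J mice, with 3 samples in each of 8 groups. Pituitary stalk electrical lesion (PEL) uses current to damage the connection between hypothalamus and pituitary. The hypothalamic groups were Sham (labelled day 0), PEL at day 3 (PEL_3d), PEL at day 10 (PEL_10d), and each of these with growth hormone (GH), written here Sham+GH, PEL_3d+GH and PEL_10d+GH. The hippocampal groups were HIP Sham (day 0) and HIP PEL_10d, neither with GH. The sample HIP Sham 3 was placed in its group by its title, since its tissue label reads hypothalamus, and its transcripts were those of the hippocampus, with 317 FPKM for the summed hippocampal genes and 2.78 FPKM for the hypothalamic ones. The GH dose and schedule are not given in the sources used here, and the hypothalamic tissue was described as a piece containing the supraoptic and paraventricular nuclei. No label says that the samples of a group came from separate animals, so p-values measure the spread between these samples.

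Total counts ranged from 15095267 to 17973494 per sample, so the samples differed little in depth. The library labelled Sham 1 went against its tissue label: the summed level of 10 hypothalamic genes was 8.80 FPKM in it against 1349 and 1299.9 FPKM in Sham 2 and Sham 3, and that of 10 hippocampal genes was 228 FPKM against 32.2 and 31.6 FPKM. The library labelled HIP Sham 1 showed the opposite, with 1120 FPKM for the hypothalamic genes against 1.41 and 2.78 FPKM in HIP Sham 2 and HIP Sham 3. The library labelled Sham 1 was therefore left out of the fits on the hypothalamus and the member counts of the comparisons with Sham are given with it as well. The hippocampal comparisons are given with and without the library labelled HIP Sham 1.

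The healthy brain parenchyma is populated by microglia and holds few leukocytes from the blood. After tissue injury, neutrophils and monocytes usually enter early, guided by chemokines and by adhesion molecules on the vessel wall, and lymphocytes may follow. Monocytes that express CCR2, the receptor of the chemokine CCL2, and high levels of the surface protein Ly6C are the inflammatory class in mice. In bulk tissue, fewer cells of a type and less of its RNA per cell cannot be told apart.

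Reads of 1 of the monocyte markers are shared with a neighbour, and the sequences show how far. Ly6c2 lies on chromosome 15 of GRCm38 at chr15:75108158-75111970 on the minus strand, and its paralog Ly6c1, which brain endothelial cells express, lies at chr15:75044018-75048830 on the same strand. The coding sequences of transcripts Ly6c2-201 and Ly6c1-201 (GENCODE annotation of GRCm38) are both 393 bases long and are identical at 384 positions, which is 97.7%. The longest identical run is 188 bases. Bases 1 to 300 are printed 5′ to 3′, with the 7 of the 9 differing bases that lie in this stretch in capitals.
Ly6c2: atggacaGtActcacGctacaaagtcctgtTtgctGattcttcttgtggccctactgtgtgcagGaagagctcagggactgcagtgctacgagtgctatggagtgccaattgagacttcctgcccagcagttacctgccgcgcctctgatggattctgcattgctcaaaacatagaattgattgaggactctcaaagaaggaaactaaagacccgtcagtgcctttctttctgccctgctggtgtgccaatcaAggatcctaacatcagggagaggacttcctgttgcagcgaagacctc
Ly6c1: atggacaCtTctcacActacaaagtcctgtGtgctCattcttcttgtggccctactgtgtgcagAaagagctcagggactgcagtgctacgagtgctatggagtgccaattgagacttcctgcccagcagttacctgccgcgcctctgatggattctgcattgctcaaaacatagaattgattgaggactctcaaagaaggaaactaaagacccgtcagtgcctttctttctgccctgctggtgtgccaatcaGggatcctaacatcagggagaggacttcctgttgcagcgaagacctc
The estimated count of Ly6c2 was not a whole number in 16 of 24 libraries, within 0.005, and in 15 of these the sum of Ly6c2 and Ly6c1 was whole. Reads had thus been divided between the pair, and Ly6c2 values are uncertain by an unknown share. The exception was PEL_3d 3, the library with the most Ly6c2, where the sum was 789.47. Its count of Ly6a was also not whole, at 790.53. Ly6c2 was a small part of the pair's sum, between 0.276% and 0.697% in Sham 2 and Sham 3 and between 1.40% and 14.8% in the PEL_3d libraries. The same pattern was seen for Lyz2 with Lyz1, whose coding sequences are identical at 422 of 444 positions, in 4 of 24 libraries. Lyz1 contributed at most 0.403% of the Lyz1 and Lyz2 sum in any lesioned hypothalamic library, and 0.837% in HIP PEL_10d 1. Chil4, the paralog of Chil3 with 94.4% identical coding sequence, was at 0 counts in all 24 libraries. The counts of Chil3, S100a8, S100a9, Cd3e, Cd3g, Cd8a and Cd79b were whole in all 24 libraries.

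**Figure D1:**
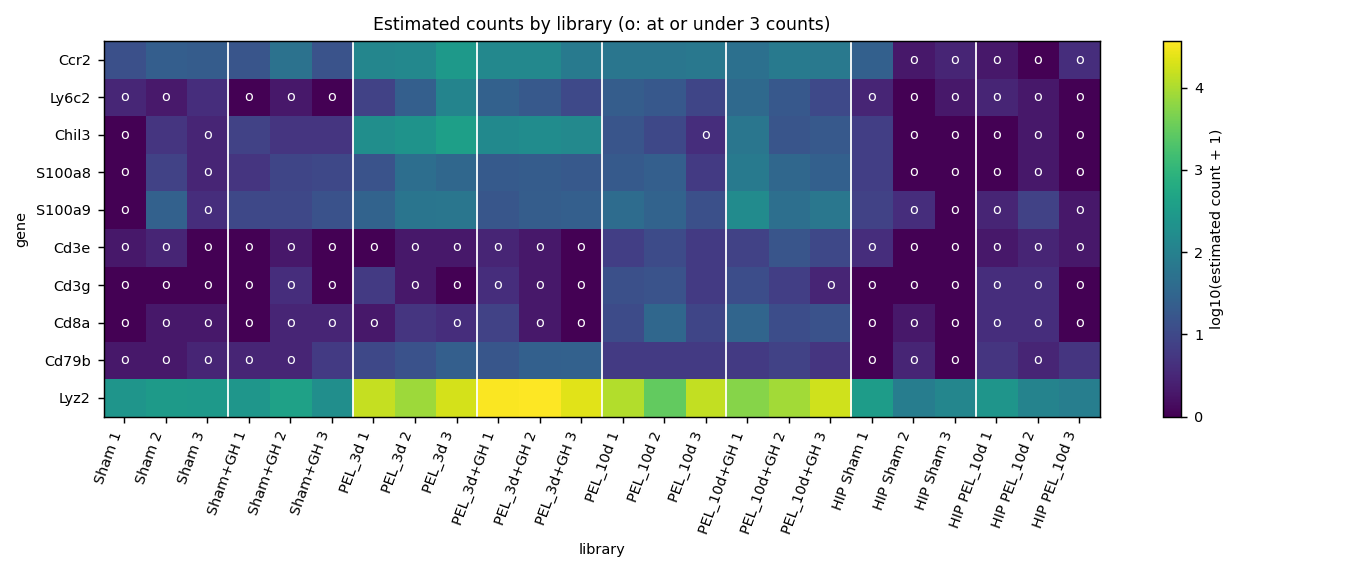
Estimated counts of the 10 members (rows) in the 24 libraries (columns), as colour on a log10 scale after adding 1, with circles on values at or under the detection floor of 3 counts. Lyz2 is above the floor in every library, and the 3 T cell genes are above it almost only in the PEL_10d and PEL_10d+GH libraries.

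With 3 counts per library taken as the floor of detection, the members fell into 3 classes. Lyz2, which encodes the lysozyme of macrophages, neutrophils and activated microglia, was above the floor in 24 of 24 libraries. Ccr2 was above it in 19, S100a9 in 18, S100a8 in 17, Chil3 in 16, Cd79b in 15 and Ly6c2 in 13. Cd8a was above it in 8, and Cd3e and Cd3g in 6 each. All libraries of Sham and Sham+GH were at or under the floor for Cd3e, Cd3g and Cd8a. In HIP PEL_10d every library was at or under the floor for Ccr2, Ly6c2, Chil3, S100a8, Cd3e, Cd3g and Cd8a.

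Ccr2 (chr9:124101950-124113557 on the plus strand, GRCm38 as for all positions here) rose at day 3 and was partly down at day 10. In Sham 2 and Sham 3 it held 22 and 20 counts, and in Sham+GH 15, 51 and 14. The PEL_3d libraries held 127, 137 and 292 counts, the PEL_3d+GH libraries 136, 137 and 75.4, the PEL_10d libraries 62, 62 and 67 and the PEL_10d+GH libraries 48, 74 and 70. Every PEL_10d library lay below every PEL_3d library, as did 17.1% of all genes in FPKM, whereas Sham+GH 2 lay above the lowest PEL_10d+GH library. On the edgeR log2 scale the change of Ccr2 was 3.05 (SE 0.42) in PEL_3d against Sham, an 8.30-fold rise with adjusted p = 0.000273, and 1.52 (SE 0.27) in PEL_10d against Sham, a 2.87-fold rise with adjusted p = 0.0101. The day 10 call was lost without Sham 2 or Sham 3 (adjusted p = 0.0929 and 0.101) and in one fit over all groups (adjusted p = 0.0784). Between day 10 and day 3 it fell by 1.53 on the log2 scale (SE 0.32, adjusted p = 0.0105), and in the GH groups the log2 change was -0.89 (SE 0.30), which did not pass (adjusted p = 0.0759).

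Chil3 (chr3:106147554-106167564 on the minus strand), the chitinase-like protein Ym1 of inflammatory monocytes and alternatively activated macrophages, was high at day 3 and low again at day 10. Sham 2 and Sham 3 held 4 and 2 counts and the Sham+GH libraries 7, 4 and 4, near the floor. The PEL_3d libraries held 182, 226 and 378 counts and the PEL_3d+GH libraries 145, 165 and 141, and the 6 day 3 libraries lay above all others. At day 10 the counts were 15, 9 and 3 without GH and 62, 15 and 18 with GH. In FPKM, a value per length and depth, the day 3 libraries ranged from 5.13 to 15.3 and the day 10 libraries from 0.127 to 2.37. Chil3 was 79.5-fold higher in PEL_3d than in Sham (log2 change 6.31, SE 0.52, adjusted p = 6.66e-06), and 28.6-fold lower in PEL_10d than in PEL_3d (SE 0.43 on the log2 scale, adjusted p = 9.44e-05). With GH the day 10 value was 5.96-fold above Sham+GH (log2 change 2.57, SE 0.64, adjusted p = 0.0126). This call was lost without Sham+GH 2 or Sham+GH 3 (adjusted p = 0.0536 and 0.0529). Over 11 alternatives the log2 change ran from 1.66 to 2.92, and PEL_10d+GH 1 held 62 counts against 15 and 18. Without GH the gene was too low at day 10 to be tested against Sham.

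Ly6c2 rose after the lesion with a wide spread that 1 library set. It was at 1.02 and 3.01 counts in Sham 2 and Sham 3, and at 0, 1 and 0 in Sham+GH. The PEL_3d libraries held 7.01, 23.0 and 117 counts, so that PEL_3d 3 held most of the group's reads, and the other 3 lesioned groups ranged from 8.04 to 35.1. All 12 lesioned libraries lay above all 5 unlesioned ones. The log2 change was 4.46 (SE 1.32, adjusted p = 0.0209) in PEL_3d against Sham, where the call was lost without Sham 2 or Sham 3 (adjusted p = 0.164 and 0.120), and 2.79 (SE 0.74, adjusted p = 0.0493) in PEL_10d against Sham. The latter lost its call in 5 of 8 alternatives, among them DESeq2 (adjusted p = 0.0584) and leaving out Sham 2 or Sham 3 (adjusted p = 0.326 and 0.169). Against the single count of the Sham+GH group, PEL_3d+GH was 51.4 times as high (95% exact counting interval 8.83 to 2070) and PEL_10d+GH 59.97 times (10.4 to 2407). Counting intervals and floors cover counting error only. Between day 10 and day 3 Ly6c2 did not pass (log2 change -1.67, SE 0.84, adjusted p = 0.198), and without PEL_3d 3 the value was 0.033.

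**Figure D2:**
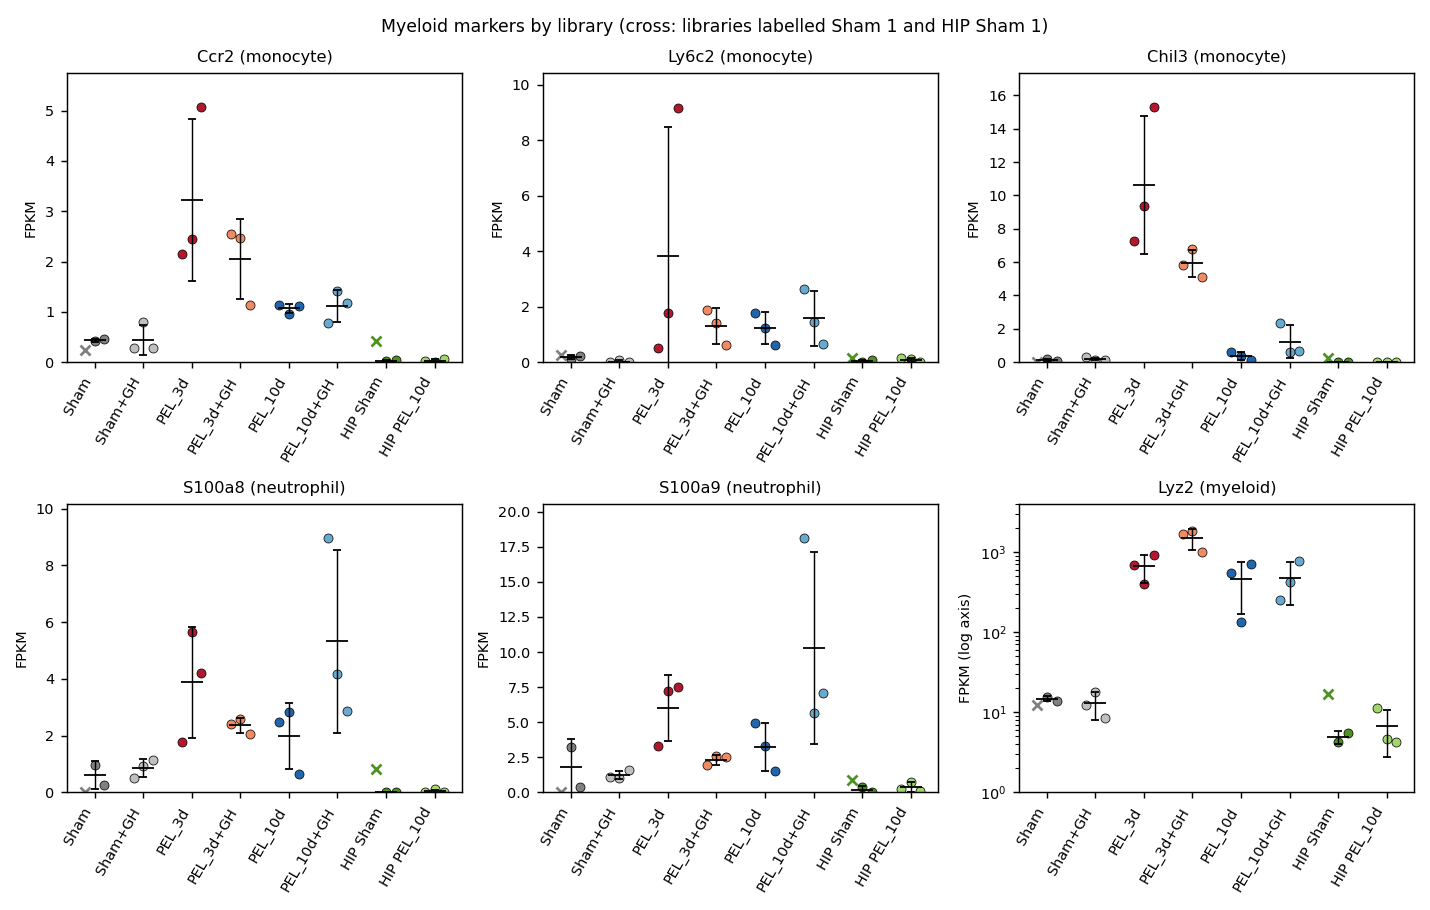
FPKM of the 6 myeloid markers in each library (points) by group, with the mean and SD as bars; crosses are the libraries labelled Sham 1 and HIP Sham 1, which are not in the means, and the Lyz2 axis is logarithmic. Chil3 and Ccr2 are highest at day 3, S100a8 and S100a9 reach their highest value in PEL_10d+GH 1, and Lyz2 separates all lesioned from all unlesioned hypothalamic libraries.

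S100a8 (chr3:90668978-90670035 on the plus strand) and S100a9 (chr3:90692632-90695721 on the minus strand) encode the subunits of calprotectin, an abundant cytosolic protein of neutrophils that monocytes also carry. S100a8 held 7 and 2 counts in Sham 2 and Sham 3, 4, 8 and 9 in Sham+GH, 14, 43 and 33 in PEL_3d and 19, 20 and 18 in PEL_3d+GH. At day 10 it held 19, 23 and 5 counts without GH and 74, 32 and 24 with GH. S100a9 followed the same course, with 25 and 3 counts in Sham 2 and Sham 3, 9, 9 and 13 in Sham+GH, 28, 58 and 62 in PEL_3d, 16, 21 and 23 in PEL_3d+GH, 40, 28 and 12 in PEL_10d, and 158, 46 and 63 in PEL_10d+GH. Sham 2 held more S100a9 than all 3 PEL_3d+GH libraries, so the unlesioned and lesioned ranges overlapped. At day 3 S100a8 was 6.18-fold above Sham (log2 change 2.63, SE 0.67, adjusted p = 0.0103) and S100a9 3.30-fold (log2 change 1.72, SE 0.62, adjusted p = 0.0478). Both calls rested on the Sham libraries: without Sham 2 the log2 changes were 3.79 and 3.94 (adjusted p = 0.0357 and 0.0125), without Sham 3 they were 1.97 and 0.87 (adjusted p = 0.111 and 0.273), and with the library labelled Sham 1 neither passed (adjusted p = 0.0756 and 0.231). S100a9 also lost its call without PEL_3d 2 or PEL_3d 3 (adjusted p = 0.0731 and 0.121). At day 10 without GH neither passed, with log2 changes of 1.68 (SE 0.77, adjusted p = 0.221) and 0.83 (SE 0.73, adjusted p = 0.541). With GH at day 10 the log2 changes against Sham+GH were 2.56 (SE 0.51, adjusted p = 0.00409) and 3.03 (SE 0.49, adjusted p = 0.00135). Over 11 alternatives they ran from 1.96 to 2.87 and from 2.35 to 3.31, and both calls were kept.

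The library with the most S100a8 and S100a9, PEL_10d+GH 1, also held the most red blood cell transcripts. The 5 genes Hba-a1, Hba-a2, Hbb-bs, Hbb-bt and Alas2 summed to 213 FPKM in it, against 66.2 and 44.9 FPKM in PEL_10d+GH 2 and PEL_10d+GH 3. The summed S100a8 and S100a9 level was 27.1 FPKM in PEL_10d+GH 1 and 9.82 and 9.96 FPKM in the other two. PEL_10d 3 was second in red blood cell transcripts among the hypothalamic libraries, at 126 FPKM, with 2.18 FPKM of S100a8 and S100a9, the lowest of the lesioned libraries. Over the 5 unlesioned libraries the red blood cell sum ranged from 17.1 to 30.1 FPKM, over the 6 day 3 libraries from 15.5 to 57.7 and over the 6 day 10 libraries from 26.3 to 213, and at most 1 of the 5 genes was at or under the floor in any of these libraries. The part of residual blood in the marker values was not tested.

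**Figure D3:**
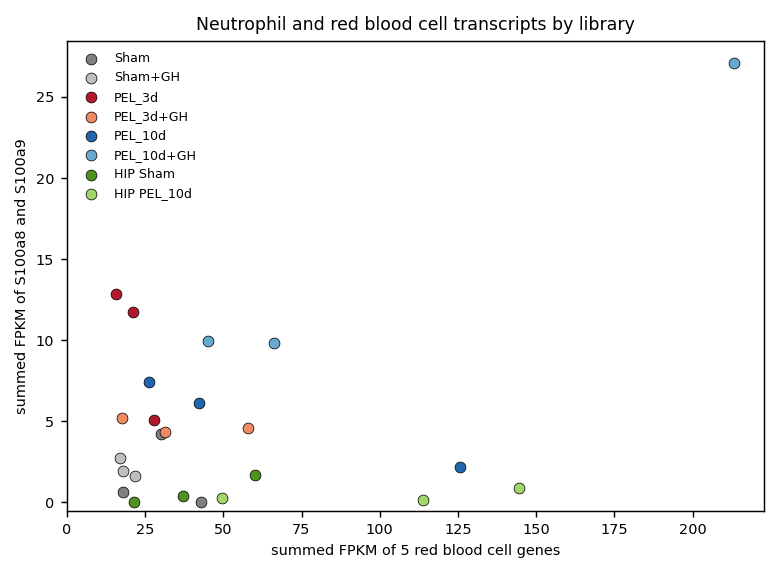
Summed FPKM of S100a8 and S100a9 (vertical axis) against the summed FPKM of 5 red blood cell genes (horizontal axis) in each of the 24 libraries, coloured by group. PEL_10d+GH 1 is highest on both axes at 213 and 27.1 FPKM, and the PEL_3d libraries reach 12.8 FPKM of the neutrophil genes with at most 27.9 FPKM of red blood cell genes.

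Lyz2 (chr10:117277331-117282321 on the minus strand) had the highest FPKM of the 10 members in every library and separated the lesioned from the unlesioned hypothalamus. It ranged from 8.43 to 18.1 FPKM over the 5 unlesioned libraries. The PEL_3d libraries held 683, 394 and 905 FPKM and the PEL_3d+GH libraries 1685, 1797 and 993 FPKM. The PEL_10d libraries held 545, 135 and 699 FPKM and the PEL_10d+GH libraries 251, 424 and 759 FPKM. Even the lowest lesioned library, PEL_10d 2, was above all unlesioned ones. In PEL_3d+GH the gene took between 0.131% and 0.237% of all counts. The rise was 43.9-fold in PEL_3d against Sham (log2 change 5.46, SE 0.34, adjusted p = 9.45e-07) and 30.5-fold in PEL_10d against Sham (log2 change 4.93, SE 0.67, adjusted p = 0.00329). The day 10 call was lost without Sham 2 or Sham 3 (adjusted p = 0.0705 and 0.0610). With GH the rises were 113-fold (log2 change 6.82, SE 0.31, adjusted p = 3.23e-07) and 36.2-fold (log2 change 5.18, SE 0.41, adjusted p = 1.93e-05). From day 3 to day 10 Lyz2 fell by 1.65 on the log2 scale with GH (SE 0.37, adjusted p = 0.0184), and without GH the change was -0.52 (SE 0.49, adjusted p = 0.493). Lyz2 is not particular to blood leukocytes, and the markers of resident cells rose with it: the summed level of 10 microglial genes ranged from 103 to 136 FPKM in the unlesioned libraries, from 640 to 859 FPKM at day 3 and from 270 to 423 FPKM at day 10, none of the genes at the floor. The sum of 7 border macrophage genes ranged from 4.56 to 6.44, from 36.3 to 88.4 and from 7.09 to 23.3 FPKM in the same order. The part of these cells in the level of Lyz2 was not tested.

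T cell transcripts were seen at day 10. Cd3e (chr9:44998740-45009627 on the minus strand) and Cd3g (chr9:44969572-44980431 on the minus strand) encode the epsilon and gamma chains of CD3, the signalling complex of the T cell receptor. Cd8a (chr6:71373427-71379173 on the plus strand) encodes the alpha chain of the coreceptor of cytotoxic T cells. Cd3e held 6, 10 and 5 counts in PEL_10d and 7, 15 and 9 in PEL_10d+GH, and at most 2 in any other hypothalamic library. Cd8a held 10, 32 and 8 counts in PEL_10d, 30, 11 and 13 in PEL_10d+GH, 1, 4 and 3 in PEL_3d and 7, 1 and 0 in PEL_3d+GH. For both genes all 6 day 10 libraries lay above all 6 day 3 libraries. Cd3g held 12, 14 and 5 counts in PEL_10d and 11, 6 and 2 in PEL_10d+GH, against 5, 1 and 0 in PEL_3d and 3, 1 and 0 in PEL_3d+GH, so that its ranges overlapped.

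Most T cell counts were too low for the filter, which kept a gene when enough libraries for 1 group held about 10 counts, and a member at the floor in Sham could pass only by being higher elsewhere. Without a filter, edgeR gave log2 changes between day 10 and day 3 of 3.17 for Cd3e (SE 0.88, adjusted p = 0.0335), 2.58 for Cd8a (SE 0.72, adjusted p = 0.0334) and 2.30 for Cd3g (SE 0.83, adjusted p = 0.0881). In the GH groups the values were 3.22 (SE 0.83, adjusted p = 0.0285), 2.68 (SE 0.83, adjusted p = 0.0584) and 2.14 (SE 0.98, adjusted p = 0.177). As a ratio of summed counts scaled for depth, Cd3e was 10.55 times as high in PEL_10d as in PEL_3d (95% exact counting interval 2.58 to 92.8). Against Sham, whose 2 libraries held no Cd3g read, Cd3g in PEL_10d was at least 3.28-fold higher, taking the floor of 3 counts per library. Cd8a was 16.0 times as high in PEL_10d as in Sham (4.21 to 136) and 12.02-fold higher in PEL_10d+GH than in Sham+GH in edgeR (log2 change 3.59, SE 0.74, adjusted p = 0.00513). The PEL_10d library with the most Cd8a and Cd3e, replicate 2, had the least Lyz2 of the lesioned hypothalamic libraries.

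Genes that complete the same complexes were read for their levels. Cd3d, the delta chain of CD3, held 10, 6 and 3 counts in PEL_10d and 10, 4 and 5 in PEL_10d+GH, and at most 3 in the day 3 libraries. Cd8b1, the beta chain of CD8, held 11, 11 and 3 counts in PEL_10d and 12, 6 and 8 in PEL_10d+GH, and at most 4 at day 3. The highest day 3 library met the lowest day 10 library for Cd3d and passed it for Cd8b1, so that the ranges touched or overlapped.

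**Figure D4:**
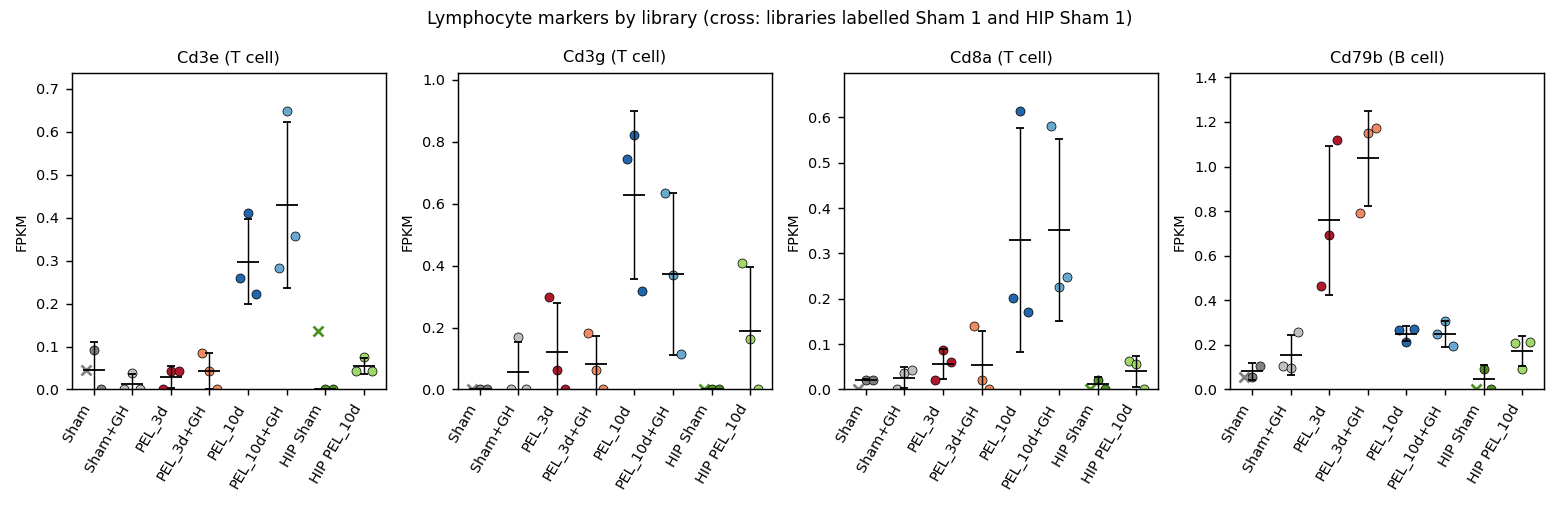
FPKM of the 4 lymphocyte markers in each library (points) by group, with the mean and SD as bars; crosses are the libraries labelled Sham 1 and HIP Sham 1, which are not in the means. Cd3e and Cd8a are higher in all 6 day 10 libraries than in all 6 day 3 libraries of the lesioned hypothalamus, and Cd79b is lower in them.

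Cd79b ran opposite to the T cell genes. The gene, at chr11:106311341-106314762 on the minus strand, encodes the beta chain of the B cell receptor's signalling pair. It held 1 and 2 counts in Sham 2 and Sham 3, 2, 2 and 5 in Sham+GH, 9, 13 and 23 in PEL_3d, 16, 24 and 25 in PEL_3d+GH, 5, 5 and 5 in PEL_10d and 5, 7 and 4 in PEL_10d+GH. In summed counts scaled for depth PEL_3d was 9.57 times Sham (95% exact counting interval 3.07 to 48.2), and the edgeR test passed (adjusted p = 0.00844) but did not without Sham 2 or Sham 3 (adjusted p = 0.0866 and 0.0549). In the GH groups the rise was 6.78-fold at day 3 (log2 change 2.76, SE 0.47, adjusted p = 0.000818). From day 3 to day 10 it fell by 2.01 on the log2 scale with GH (SE 0.41, adjusted p = 0.0131), and without GH, with no filter, the change was -1.56 (SE 0.53, adjusted p = 0.0738). Cd79a, its partner in the same receptor, did not follow: it held between 4 and 8 counts at day 3, between 3 and 13 at day 10 and between 1 and 11 over the unlesioned libraries.

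The groups with and without GH were also pooled to compare the days, a comparison chosen after the data were seen, with 6 libraries a side. In an exact two-sided permutation test of FPKM, whose smallest possible p is 0.00216, Cd3e (0.363 ± 0.155 at day 10 and 0.0358 ± 0.0321 at day 3, SD), Cd8a (0.340 ± 0.201 and 0.0547 ± 0.0517), Chil3 (0.794 ± 0.802 and 8.27 ± 3.72) and Cd79b (0.250 ± 0.0421 and 0.898 ± 0.293) all gave that p. Among 18505 genes, 3.54% lay higher in every day 10 than in every day 3 library and 8.65% lower. Ccr2 (p = 0.00866), Cd3g (p = 0.00866) and Lyz2 (p = 0.0346) differed with overlapping ranges in the same exact permutation test. Ly6c2 (p = 0.623), S100a8 (p = 0.729) and S100a9 (p = 0.407) did not pass this exact permutation test. Without a filter, edgeR called 7 of the 10 members in this pooled comparison, with Cd3e, Cd3g and Cd8a higher at day 10, where 14.1% of genes were called higher, and Ccr2, Chil3, Cd79b and Lyz2 lower, where 16.5% were. Adjusted p-values of the 7 ran from 1.31e-06 for Chil3 to 0.0245 for Lyz2.

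**Figure D5:**
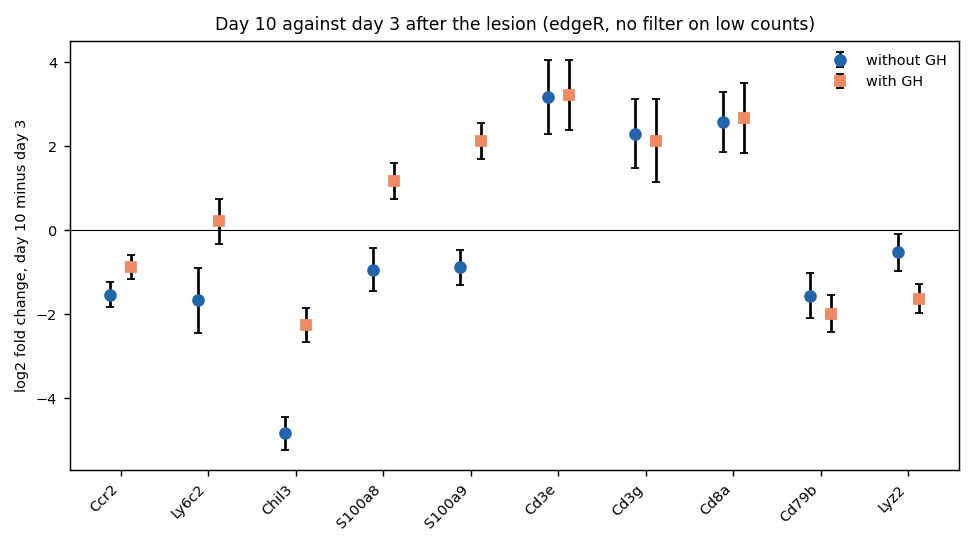
Log2 fold change from day 3 to day 10 after the lesion for each member, from edgeR without a filter on low counts, for the groups without GH (circles) and with GH (squares); bars are SE. Cd3e, Cd3g and Cd8a lie between 2.14 and 3.22 in both, Chil3 at -4.84 and -2.26, and S100a9 at -0.89 and 2.13.

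Between the days, S100a9 rose with GH, and the other changes of S100a8 and S100a9 did not pass. Without GH the log2 changes from day 3 to day 10 were -0.94 (SE 0.53, adjusted p = 0.250) and -0.88 (SE 0.43, adjusted p = 0.183). With GH they were 1.16 (SE 0.43, adjusted p = 0.0993) and 2.12 (SE 0.46, adjusted p = 0.0170). The test of the difference between the 2 changes gave 2.11 (SE 0.75) for S100a8 and 3.02 (SE 0.70) for S100a9, and 2.58 (SE 0.73) for Chil3. None passed in edgeR over 15091 genes (adjusted p = 0.9998 for each), where 0.0% of genes were called, and the unadjusted p-values were 0.0147, 0.000798 and 0.00347.

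Counted over the members, PEL_3d against Sham called 7 of the 7 that could be tested higher, beside 22.2% of all genes tested. These were Ccr2, Ly6c2, Chil3, S100a8, S100a9, Cd79b and Lyz2. Of them, Ly6c2, Chil3, S100a8 and Cd79b held under 10 counts in both Sham libraries and passed the filter through the lesioned group alone. Without a filter the count of members called higher was 7 of 10, beside 18.6% of all genes. With the library labelled Sham 1 in the fit, 3 were called, beside 10.4% of all genes, and without Sham 3, PEL_3d 2 or PEL_3d 3 the count was 3, 4 and 4. PEL_10d against Sham called 4 of 6 higher (Ccr2, Ly6c2, Cd3g and Lyz2), beside 7.97% of all genes. Cd3g at 0 counts in both Sham libraries and Ly6c2 at 1.02 and 3.01 passed the filter through the lesioned group alone, and without a filter 5 of 10 were called, with Cd8a added, beside 7.3%. With the library labelled Sham 1 the count was 2, beside 1.81% of all genes, without PEL_10d 1 or PEL_10d 2 it was also 2, and without Sham 2 or Sham 3, which left a lone Sham library, it was 0. PEL_10d against PEL_3d called 2 of 6 lower, Ccr2 and Chil3, beside 12.2% of all genes, and 0 higher, beside 6.33%. There the edgeR test also gave 0 members higher at an unadjusted p under 0.05, DESeq2 called 0 higher, and without a filter it gave Cd3e and Cd8a as higher, beside 4.83%, and Ccr2 and Chil3 as lower, beside 10.2%. The same comparison in the GH groups called 1 of 8 members higher, S100a9, beside 4.81% of all genes, and 3 lower, Chil3, Cd79b and Lyz2, beside 10.8%.

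With GH, PEL_3d+GH against Sham+GH called 5 of 6 higher (Ccr2, Chil3, S100a8, Cd79b and Lyz2), beside 26.9% of all genes, and S100a9 missed the threshold at adjusted p = 0.0508 (log2 change 0.90, SE 0.35). Chil3, S100a8 and Cd79b held under 10 counts in all Sham+GH libraries and passed the filter through the lesioned group alone. Without a filter 6 of 10 members were called, beside 22.8%. PEL_10d+GH against Sham+GH called 6 of 6 higher (Ccr2, Chil3, S100a8, S100a9, Cd8a and Lyz2), beside 17.7%, and without a filter 8 of 10, beside 15.1%. Chil3, S100a8 and Cd8a passed the filter in PEL_10d+GH against Sham+GH in the same way. The call of Ccr2 there was lost without Sham+GH 1, Sham+GH 3, PEL_10d+GH 2 or PEL_10d+GH 3 (adjusted p from 0.0930 to 0.152), and that of S100a8 in PEL_3d+GH without Sham+GH 1 (adjusted p = 0.0550) and in one fit over all groups (adjusted p = 0.0647). The comparisons of each lesioned group with Sham share their Sham libraries, as do those with Sham+GH. In all 12 lesioned against the 5 unlesioned libraries, 9 of 9 tested members were higher, beside 28.2% of all genes, and the count was also 9 with the library labelled Sham 1, beside 21.9%. Ly6c2, Chil3, S100a8, Cd3g, Cd8a and Cd79b held under 10 counts in all 5 unlesioned libraries and passed the filter through the lesioned libraries alone. Without a filter the count was 9 of 10, beside 22.5%. The log2 changes ran from 1.63 for S100a9 (SE 0.42, adjusted p = 0.00364) to 5.61 for Lyz2 (SE 0.47, adjusted p = 5.38e-08). Cd3e could not be tested there, and its ratio of summed counts scaled for depth was 7.76 (95% exact counting interval 2.52 to 38.7). Every lesioned library lay above every unlesioned one for Ly6c2 and Lyz2, as for 8.46% of 18711 genes. In an exact two-sided permutation test of FPKM over the 17 libraries, with a smallest possible p of 0.000323, Ly6c2 and Lyz2 gave that p and Cd3e gave p = 0.0585, none adjusted for the 10 members tested.

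The calls of Cd3g and Cd8a depended on single libraries. In the lesioned against unlesioned fit Cd8a lost its call without Sham 2, Sham 3 or PEL_3d+GH 1 (adjusted p = 0.0529, 0.0545 and 0.123), and Cd3g lost it in 7 of 23 alternatives (adjusted p up to 0.0958). Ly6c2 and S100a9 each lost theirs without the GH groups (adjusted p = 0.0578 and 0.161). Ccr2, Chil3, Cd79b, S100a8 and Lyz2 kept theirs in all alternatives run.

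GH itself gave no called difference in any member. In PEL_3d+GH against PEL_3d, edgeR called 0 of 7 tested members, beside 0.027% of all genes. S100a9, Chil3 and Lyz2 were the 3 at an unadjusted p under 0.05: mean S100a9 was 2.35 ± 0.354 FPKM with GH and 6.02 ± 2.32 FPKM without (SD, n = 3 each), Chil3 5.92 ± 0.830 and 10.6 ± 4.16 FPKM, and Lyz2 1492 ± 435 and 661 ± 256 FPKM. In PEL_10d+GH against PEL_10d, edgeR called 0 of 8, beside 0.0% of all genes, and S100a9, Chil3 and S100a8 were at an unadjusted p under 0.05. S100a9 was 10.3 ± 6.82 FPKM with GH and 3.24 ± 1.71 FPKM without, and Chil3 1.22 ± 0.998 and 0.365 ± 0.245 FPKM. DESeq2 called 0 members in both comparisons. In Sham+GH against Sham, edgeR called 0 of 3 tested members, beside 1.09% of all genes, and 0 were at an unadjusted p under 0.05 and 0 called by DESeq2. With the library labelled Sham 1 it called 0 of 2, beside 0.0%. Whether GH changed the effect of the lesion was tested directly, and 0 of 7 members passed at day 3 and 0 of 8 at day 10 in edgeR, beside 0.0462% and 0.0% of all genes, with 1 at an unadjusted p under 0.05 in each. DESeq2 gave an adjusted p to 4 and 3 of them and called 0. With the library labelled Sham 1 edgeR also called 0 of 7 and 0 of 8, beside 0.0% of all genes in both tests.

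In the hippocampus the members were at or near the floor. In HIP Sham 2 and HIP Sham 3 Ccr2 held 1 and 2 counts and in HIP PEL_10d 1, 0 and 3. Chil3 and S100a8 were at 0 or 1 count in these 5 libraries, and Ly6c2 was at 2.02 counts or less. Lyz2 was the exception, with 86 and 122 counts in HIP Sham 2 and HIP Sham 3 and 237, 110 and 88 in HIP PEL_10d, which overlapped. The library labelled HIP Sham 1 held 24 counts of Ccr2, 6 each of Chil3 and S100a8, and 334 of Lyz2. Lyz2 alone could be tested and did not pass (log2 change -0.29, SE 0.59, adjusted p = 0.857), and without the library labelled HIP Sham 1 the change was 0.43 (adjusted p = 0.557). Of 14039 genes, 0.0% were called in this comparison by edgeR, and 6.15% of 14191 without the library labelled HIP Sham 1. DESeq2 did not call Lyz2 either, and its unadjusted edgeR p was 0.639. The day 10 change of Lyz2 was larger in the hypothalamus than in the hippocampus, by 5.23 on the log2 scale (SE 1.05, adjusted p = 0.0434), where 1.82% of all genes were called higher. Without the library labelled HIP Sham 1 the difference was 4.48 (adjusted p = 0.0182), beside 6.52% of all genes, and with the library labelled Sham 1 it was 5.29 (adjusted p = 0.0413), beside 0.624%. The hippocampal groups also differed in choroid plexus transcripts, whose 8-gene sum was 4363 and 5466 FPKM in HIP Sham 2 and HIP Sham 3 and 135, 39.0 and 802 FPKM in HIP PEL_10d, against 9.74 to 28.3 FPKM in the hypothalamic libraries other than Sham 1, and the part of this in the Lyz2 difference was not tested. Lyz2 was the only 1 of 6 tested members to pass, and the call was lost without any of 8 libraries left out singly (adjusted p up to 0.234).

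Lists of further genes for each leukocyte class were read beside the members. Of 84 blood leukocyte genes other than the members, 56 could be tested in the lesioned against unlesioned hypothalamus, and 33 were higher and 2 lower, beside 28.2% and 25.6% of all genes. Among monocyte genes 10 of 11 were higher. These included F10 (0.166 to 2.42 FPKM in the lesioned libraries and 0 in the unlesioned ones), Plac8 (log2 change 3.56, SE 0.56) and Ms4a4c (3.22, SE 0.57). The monocyte list also holds Ly6c1, which brain endothelial cells express. Ly6c1 held 29.0 to 38.0 FPKM in the unlesioned libraries, where the whole list summed to 41.9 to 55.3 FPKM. Among neutrophil genes 8 of 12 were higher, led by the lectins Clec4d (0.680 to 8.97 FPKM against at most 0.0700) and Clec4e and the chemokine receptor Cxcr2. Among T cell genes 6 of 14 were higher and 1 lower, with Cd28, the costimulatory receptor, at a median of 0.700 FPKM against 0.0150, and the chemokine receptors Cxcr6 and Cxcr3. Among B and plasma cell genes Cd22 and Ighm rose, 2 of 5 tested. Nkg7 was the 1 of 2 natural killer cell genes tested that rose, Itgax and Ccr7 the 2 of 6 dendritic cell genes, and Siglecf, Cpa3 and Tpsb2 were among the 4 of 6 mast cell and granulocyte genes. The shares of the T cell, B and plasma cell and dendritic cell lists lay nearer that of all genes than the shares of the monocyte and neutrophil lists. Genes at the floor in the unlesioned libraries could be tested only by being higher in the lesioned ones, which favours higher calls. Of the 17 neutrophil genes, 7 to 11 were at or under the floor in an unlesioned library. The part of microglia and macrophages in the rise of these lists was not tested.

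Genes shared by all leukocytes and genes of resident and vascular cells were read in the same comparison, where 28.2% of all genes were called higher. All 12 pan-leukocyte genes rose (median log2 change 3.13 against 0.00 over all genes), with Cd52 at 14.7 to 49.98 FPKM in the lesioned and 1.21 to 2.62 FPKM in the unlesioned libraries. All 10 microglial genes rose (median 1.61), as did all 10 genes of phagocytic macrophages (median 4.58), of which Gpnmb reached 346 FPKM. Of the chemokines that recruit leukocytes, 9 of 10 tested rose, among them Ccl3, Ccl4 and Ccl5, and of the endothelial adhesion genes 6 of 7, among them Selp and Icam1, which slow and hold leukocytes on the vessel wall.

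Between day 10 and day 3 without GH, 12 of 39 tested blood leukocyte genes other than the members were lower, beside 12.2% of all genes, and 0 higher, beside 6.33%, in edgeR. These were 5 of 11 monocyte genes and 7 of 10 neutrophil genes, while 0 of 10 T cell genes passed in either direction. Genes not particular to blood leukocytes were lower as well, with 10 of 10 microglial genes (median log2 change -1.08), 10 of 12 pan-leukocyte genes and 4 of 7 border macrophage genes called, and their part in the fall was not tested. Of the 19 genes of the T cell list, the 10 that could be tested went both ways, with Cd28 at -0.89 (SE 0.46, adjusted p = 0.205), Trac at 0.79 (SE 0.27, adjusted p = 0.0736) and Cxcr3 at 1.52 (SE 0.48, adjusted p = 0.0557). The summed level of the 19 genes ranged from 10.1 to 10.496 FPKM in PEL_3d and from 10.997 to 16.1 FPKM in PEL_10d. It ranged from 10.9 to 12.3 FPKM in PEL_3d+GH and from 14.5 to 18.7 FPKM in PEL_10d+GH, so that the days did not overlap within either set. Of all genes, 13.5% lay higher in every PEL_10d than in every PEL_3d library. The sum ranged from 9.39 to 11.9 FPKM in the unlesioned libraries, the highest of which lay above the lowest PEL_10d library. In the unlesioned libraries 10 to 12 of the 19 genes were at or under the floor, so the other genes carried most of the sum. Between 7 and 9 of the genes were at or under the floor in a day 3 library, and between 0 and 6 in a day 10 library.

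The genes whose log2 level over the 17 hypothalamic libraries was most like a member's were found for the 4 members with a mean count of at least 30, among 13395 genes. Nearest to Lyz2 were Gpnmb (Pearson r = 0.993, on log2(FPKM + 0.1)), Cd300a, AB124611, Slc11a1 and Lhfpl2. Nearest to Chil3 were Coro1a (r = 0.988), Tmem119, Tmem14c, Shmt2 and Cdca8, and nearest to Ccr2 were Tyk2 (r = 0.96), Sord, Cav1, Tmem168 and Gsap. Nearest to S100a9 were S100a8 (r = 0.915), Ngp, a granule protein of immature neutrophils, H2-Q7, Hist2h3c2 and Slc50a1. With 1 added in place of 0.1, the first gene of each list stayed but others changed. For Chil3, Ccr1, Ddx39 and Metrn took the place of Tmem119, Tmem14c and Shmt2. For Ccr2, Eif2ak2 and Hsdl2 replaced Cav1 and Tmem168. Lgals3 replaced AB124611 for Lyz2, and Tjap1 replaced Slc50a1 for S100a9. The libraries share the lesion and the day, which by themselves align genes. Among the members, Chil3 and Cd79b (r = 0.879) and Ccr2 and Lyz2 (r = 0.849) went together, and so did Cd3e and Cd8a (r = 0.864), whereas Chil3 and Cd3e did not (r = -0.20).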

How the data were processed

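Gene expression was measured by RNA-seq in 24 samples (8 groups of 3), grouped by the sample labels. The paper states that reads were aligned with Hisat2 and counted with featureCounts, and the submitters' processing notes name GRCm38 and mm10. For each gene and sample the table deposited by the authors holds estimated counts and FPKM. Of the deposited counts 8.22% are not whole, and they were rounded for the tests. The paper names no step that divides reads between genes. Of 22274 gene identifiers 22219 were matched to a symbol.

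Counts were tested with edgeR 4.0.16 (R 4.3.3) by quasi-likelihood with TMM scaling, a filter at a minimum count of 10 and Benjamini-Hochberg adjustment over all genes at 0.05. SE is the log2 change over the square root of F. The study's own tool, DESeq2 (1.42.0 here), was an alternative, as were size factors, filters, the replicate block, 1 fit over all groups and each library left out. FPKM values were compared by exact permutation and, as log2(FPKM + 0.1), correlated, and the tests were tested on simulated data. The members and lists were chosen with earlier results of these data known. All 10 members were described. From each further list up to 3 called genes with the largest change were named, and values of other genes (Cd3d, Cd8b1, Cd79a, Trac and Ngp among them) were chosen after they were seen.

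Same-numbered replicates did not deviate together: 0 of 28 pairs of groups had all correlations above 0.1. Replicates of a group differed by more than sampling noise, with chi-square per degree of freedom from 3.19 to 19.7, and from 156 to 160 in the 4 pairs with the library labelled Sham 1 or HIP Sham 1.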

Additional observations from a re-analysis of the deposited data

Results flagged for a closer look

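The day 10 change of Lyz2 differed between the tissues. It was 5.23 higher on the log2 scale in the hypothalamus than in the hippocampus (SE 1.05, adjusted p = 0.0434 in edgeR). This fit held the library labelled HIP Sham 1, whose transcripts were hypothalamic, and without that library the difference was 4.48. The hippocampal groups also differed in choroid plexus transcripts (4363 and 5466 FPKM in HIP Sham 2 and HIP Sham 3, 39.0 to 802 FPKM in HIP PEL_10d), whose part in the difference was not tested. The value ranged from 4.48 to 5.80 over 19 alternatives, and the adjusted p passed the threshold in 10 of them.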

How the results depend on the processing

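The 34 called member values kept their call in 445 of 498 alternative settings, lost it in 53 and reversed in 0. Of 50 values that were not called, 19 changed sign under some alternative. With only genes of a mean count of at least 50, where fewer members could be tested, 3 were called in PEL_3d against Sham, 1 in PEL_10d against Sham, 3 in PEL_3d+GH against Sham+GH, 1 in PEL_10d+GH against Sham+GH and 3 in lesioned against unlesioned. With the library labelled Sham 1 the first 2 counts were 3 and 2, and without the GH groups the last was 5. For PEL_10d against PEL_3d, 4 were called without a filter, 4 in one fit over all groups, 4 in the GH groups (5 without a filter) and 6 with both sets together (7 without a filter). These GH settings, and the hippocampal fit without both HIP Sham 1 and the filter, were chosen after seeing the data.

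Leaving out 1 library at a time gave 3 to 7 called members in PEL_3d against Sham, 0 to 4 in PEL_10d against Sham, 2 to 3 in PEL_10d against PEL_3d, 5 to 7 in PEL_3d+GH against Sham+GH, 5 to 6 in PEL_10d+GH against Sham+GH, 7 to 9 in lesioned against unlesioned and 0 to 1 between the tissues. A lone remaining library was assumed to vary like the other group.

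Signs turned in the day 10 against day 3 values. Ly6c2 ranged from -2.19 to 0.033 over libraries left out (the latter without PEL_3d 3), and was 0.20 and 0.21 in the GH groups with and without the filter. S100a8 was 1.16 and 1.17 in the GH groups and 0.10 and 0.11 with both sets together, and S100a9 was 2.12 and 2.13, and 0.61 and 0.62. Lyz2 in the hippocampus ranged from -0.87 to 0.43 over libraries left out, and was 0.42 without HIP Sham 1 and the filter. The cause was not tested.

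Same-numbered replicates were not paired (correlations of deviations from -0.811 to 0.242). With the replicate block the tissue difference of Lyz2 was 4.59 (adjusted p = 0.0525), so that 0 members were called there, and Ly6c2 in PEL_10d against Sham was 2.45 (adjusted p = 0.0867), both past the threshold without it, while Lyz2 in PEL_10d against PEL_3d was -0.73 and passed (adjusted p = 0.0264). The lymphocyte genes held at most 32 counts in any library, which limits the precision of their values.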
